A study of Mus musculus with 46 samples.

Results

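Lungs of Nrf2 mutant mice and of wild type mice, both after 24 h in 100% oxygen, were compared on 11 of the 46 arrays of a study of hyperoxic lung injury. The arrays were chosen by their titles, which name genotype and time. The Nrf2 mutant group held 6 arrays, 2 on each of the array types A, B and C, and the wild type group held 5, with 1 on type A and 2 each on types B and C. The types carry different probe sets of 1 set of oligonucleotide arrays, so a gene measured on type A rests on a single wild type array. The same genotypes were also measured at 0, 48 and 72 h of oxygen, and those arrays enter the estimate of the spread behind every p-value as well as the levels given for other times. The labels give neither strain, sex nor age, nor the kind of mutation. They also do not say whether replicates 1a and 1b came from separate mice, so the p-values measure only the spread between these samples, which may be technical. Whole lung was used, and fewer cells of a type and less RNA per cell cannot be told apart.

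NRF2, the product of Nfe2l2, is a transcription factor that KEAP1 holds back in unstressed cells and that oxidants release. With a small Maf partner it binds antioxidant response elements in the promoters of genes for glutathione synthesis and conjugation, for the reduction of quinones and aldehydes, and for NADPH supply. In the lung, high oxygen produces reactive oxygen species that injure endothelium and alveolar epithelium, and inflammation with neutrophils follows.

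Values are deposited linear intensities, given here per array. Differences are log2(Nrf2 mutant) minus log2(wild type) ± SE, fitted with limma after a fixed value was added to every intensity of an array type, 78.1 on A, 126 on B and 106 on C, and folds come from that fit, so the fold of a dim gene is understated. A probe set was called at a Benjamini-Hochberg adjusted p under 0.05 over the 26833 probe sets tested. The trimmed mean intensity of the 24 h arrays lay between 800.19 and 800.46, and replicates correlated at 0.925 to 0.977 on the log2 scale. The ratio of 3′ to 5′ Gapdh signal, a measure of RNA quality, was 0.945 to 1.54 in mutant and 0.938 to 1.41 in wild type arrays. The surfactant gene Sftpc, which marks alveolar type 2 cells, had 21573 and 28541 in mutant lungs and 12776 in the wild type lung, and Scgb1a1, the main club cell secretory protein, had 26924 and 37425 in mutant lungs and 24265 in the wild type lung. Both lung markers were thus bright in both genotypes, and neither difference was called (adjusted p 0.411 and 0.748).

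Nfe2l2, the mutated gene, had 424 and 303 in mutant lungs, against 3425 in the wild type lung. It was 8.02-fold lower in the mutant (log2 difference -3.00 ± 0.25, adjusted p 0.00165). The signal left in the mutant was above 195, the intensity that a type A probe set had to pass to be tested, and whether the probe set lies in the altered part of the gene was not tested.

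At 24 h the genotypes differed at 42 probe sets, 0.157% of those tested, with 21 higher and 21 lower in the mutant. Types B and C, where both genotypes have 2 arrays, gave 23 of these calls, or 0.126% of their 18318 probe sets. Taking each gene by its brightest probe set, 14 of 13411 genes were called higher (0.104%) and 12 were called lower (0.0895%). The falls were led by Xaf1, Cwc22, Nfe2l2, the carboxylesterase Ces1f and the glutathione peroxidase Gpx2, and the rises by Vnn3, the immediate early gene Nr4a1, Col9a1, Taok1 and the neutrophil surface protein Cd177. The arrays of the genotypes did not overlap at any of the 42. Uncalled genes, such as Abcc4 on type B (adjusted p 0.672), were also without overlap, so this adds no support to the calls. On type A it means only that both mutant arrays lay on the same side of 1 wild type array. When the 11 arrays were fitted without the other times, limma called 0 probe sets, while 2539 still had an unadjusted p under 0.05. Without mutant replicate 1a there were 18 calls, without mutant replicate 1b 21, without wild type replicate 1a 37, and without wild type replicate 1b, which leaves types B and C alone, 5. Xaf1, Cwc22, Ces1f and Csrnp1 kept their call each time 1 replicate was left out. On type A, which lacks wild type replicate 1a at 24 h, only leaving out a mutant replicate put a call to the test. Nfe2l2, Wfdc21 and the called probe set of Ighm kept their call whichever mutant replicate was left out. Every other called gene of the naming rule lost the call at least once.

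**Figure D1:**
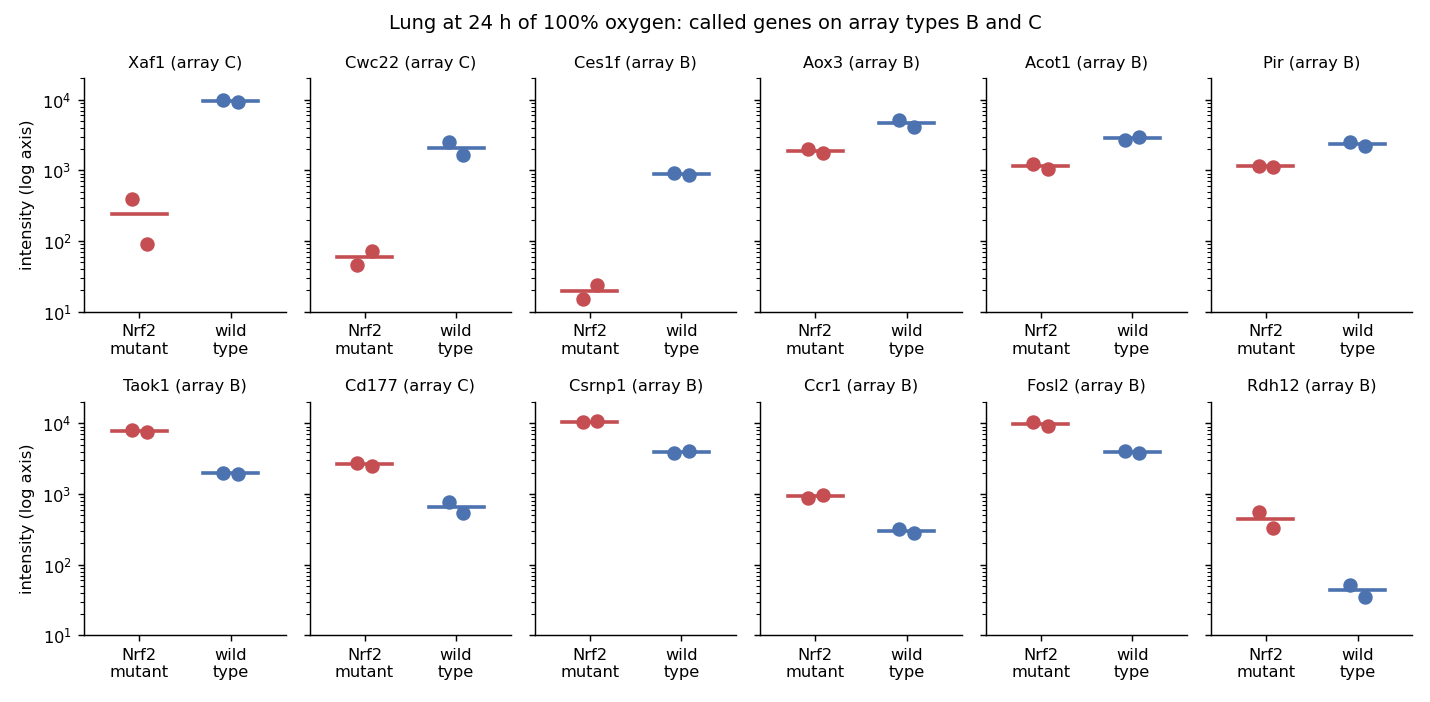
Deposited intensity on each array (points, log axis) and the mean of the 2 arrays (bar) for 12 called genes of array types B and C at 24 h of oxygen. The mutant points lie below the wild type points in the top row (Xaf1 to Pir) and above them in the bottom row (Taok1 to Rdh12), with no overlap.

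Among genes of glutathione and detoxification that are known NRF2 targets, values were lower in the mutant and none was higher at an unadjusted p under 0.05. Of 40 tested members, 17 were lower at that threshold, where 5.91% of all genes were, and 0 were higher, where 4.78% of all genes were. The median log2 difference of the list was -0.42, against -0.01 over all genes, and 33 of the 40 were negative. On types B and C 3 of 9 members were lower at that threshold, where 4.93% of all genes on those types were, and their median was -0.24. At 0 h, before oxygen, the median of the whole list was -0.44, against -0.06 over all genes. The list was thus lower in the mutant without oxygen too, though the mutant 0 h arrays had the highest 3′ to 5′ Gapdh ratios.

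Ces1f, a carboxylesterase that hydrolyses esters and drugs, had the smallest adjusted p of the comparison. Its brighter probe set had 15.0 and 23.8 in mutant lungs, against 908 and 853 in wild type lungs. The wild type arrays were close together, the mutant arrays were near the bottom of the scale, and the fall was 6.94-fold (log2 difference -2.79 ± 0.19, adjusted p 6.37e-05). A second Ces1f probe set fell by 2.32 on the log2 scale (adjusted p 0.00392). Ces1g, a relative, is less clear. Its type A probe set had 18.9 and 19.0 in mutant lungs and 288 in the wild type lung (adjusted p 0.0148), while its brightest probe set, on type B, had 5718 and 4898 in mutant and 8051 and 8326 in wild type lungs and was not called (log2 difference -0.62 ± 0.21, adjusted p 0.349). The esterases have similar sequences, and how the probe sets divide them was not tested.

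Gpx2, the epithelial glutathione peroxidase that removes hydroperoxides, had 570 and 510 in mutant lungs, against 2259.5 in the wild type lung. It fell 3.78-fold (log2 difference -1.92 ± 0.22, adjusted p 0.00849). Gpx2 kept its call without mutant replicate 1a and lost it without mutant replicate 1b, the only omissions that test a type A probe set. Aox3, an aldehyde oxidase outside the list, had 1985 and 1780 in mutant lungs and 5189.5 and 4115 in wild type lungs, and fell 2.37-fold (adjusted p 0.0164). 

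The next members of the list were not called. Ces1d had 5046 and 5157 in mutant lungs and 11241 in the wild type lung (adjusted p 0.0714), and Aldh1a7, an aldehyde dehydrogenase, had 1160 and 1188 in mutant lungs and 2997 in the wild type lung (adjusted p 0.0788). Gsta3, a glutathione transferase, had 343 and 321 in mutant lungs and 1528 in the wild type lung (adjusted p 0.0876). Gclc, the catalytic subunit of the rate-limiting enzyme of glutathione synthesis, had 1023.5 and 1312 in mutant lungs and 1850 in the wild type lung (adjusted p 0.413). Nqo1, the quinone reductase often used as an NRF2 reporter, was dim, with 92.6 and 64.3 in mutant lungs and 146 in the wild type lung (adjusted p 0.505). In all 5 the mutant arrays were below the single wild type array, which alone does not show a difference, and none passed the threshold. Not all members did so: the mutant arrays were above the wild type array for Akr1c13, and it lay between them for Ugdh and Gsr.

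The list of NRF2 targets for redox reactions, iron and NADPH had a smaller median. Of 16 tested, 5 were lower and 0 higher at an unadjusted p under 0.05, where 5.91% of all genes were lower and 4.78% higher, none was called, and the median log2 difference was -0.19. At 0 h the median of this list was -0.36. Osgin1, an oxidative stress growth inhibitor, had 168 and 87.5 in mutant lungs against 441 and 353 in wild type lungs (log2 difference -1.06 ± 0.19, adjusted p 0.0618). Txnrd1, the cytosolic thioredoxin reductase, had 927 and 1057 in mutant lungs and 1525 in the wild type lung (adjusted p 0.411), and Me1, a malic enzyme that makes NADPH, had 1120 and 1052 in mutant lungs and 1895 in the wild type lung (adjusted p 0.216). Trim16 had 1308 and 679 in mutant lungs and 2220 and 1389 in wild type lungs (adjusted p 0.331). Hmox1, the inducible haem oxygenase, had 3463 and 3882 in mutant lungs and 3594 in the wild type lung (log2 difference 0.03 ± 0.29), so that the wild type array lay between the mutant arrays. Of 15 other antioxidant enzymes 3 were lower and 0 higher at that threshold, against the same shares of all genes. Pir, which encodes the iron-binding protein pirin and was in neither list, had 1171 and 1125 in mutant lungs against 2557 and 2204 in wild type lungs and fell 1.96-fold (adjusted p 0.0186), with the arrays of a genotype close together.

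Promoters of Pir, Gsta3 and Me1 are printed because these genes, with lower values in the mutant, hold the core of the antioxidant response element. The motif searched was TGACNNNGC on both strands, in the window from 250 bases before to 50 bases after the annotated start, in RefSeq sequence of build GRCm38.p6. Capitals mark the matches, each sequence runs 5′ to 3′ on the strand of its gene, and positions count from the start. Pir (chrX:164269181-164269480, plus strand) has matches that begin at -214 and at 19, Gsta3 (chr1:21240335-21240634, plus strand) has 1 at -121, and Me1 (chr9:86695865-86696164, minus strand) has 1 at -6.
Pir: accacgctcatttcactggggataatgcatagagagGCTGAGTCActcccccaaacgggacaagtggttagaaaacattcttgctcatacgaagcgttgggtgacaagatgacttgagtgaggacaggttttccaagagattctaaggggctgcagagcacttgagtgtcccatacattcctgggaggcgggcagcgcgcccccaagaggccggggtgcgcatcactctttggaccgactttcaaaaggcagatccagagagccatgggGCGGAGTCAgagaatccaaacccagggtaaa
Gsta3: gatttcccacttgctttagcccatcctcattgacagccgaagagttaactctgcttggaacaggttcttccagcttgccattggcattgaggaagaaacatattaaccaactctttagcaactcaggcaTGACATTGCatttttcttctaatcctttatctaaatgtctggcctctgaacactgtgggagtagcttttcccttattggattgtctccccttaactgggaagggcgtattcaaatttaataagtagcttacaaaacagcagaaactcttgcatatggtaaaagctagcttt
Me1: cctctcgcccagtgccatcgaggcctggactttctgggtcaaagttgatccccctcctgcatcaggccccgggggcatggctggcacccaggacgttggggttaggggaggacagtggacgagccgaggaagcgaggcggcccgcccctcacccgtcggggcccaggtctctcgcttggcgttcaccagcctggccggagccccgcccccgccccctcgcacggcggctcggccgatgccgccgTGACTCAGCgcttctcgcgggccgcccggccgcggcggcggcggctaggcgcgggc
The motif occurs in 12.39% of all 32851 promoter windows, and in at least 1 window of 16.53% of the 10679 tested genes that have one. It was found in 8 of 35 genes with a window in the glutathione and detoxification list, in 7 of 16 in the redox list and in 2 of 11 genes called lower, Nfe2l2 and Pir. Among the 15 genes called higher that have a window, 2 hold it. A match is a description of these letters only.

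**Figure D2:**
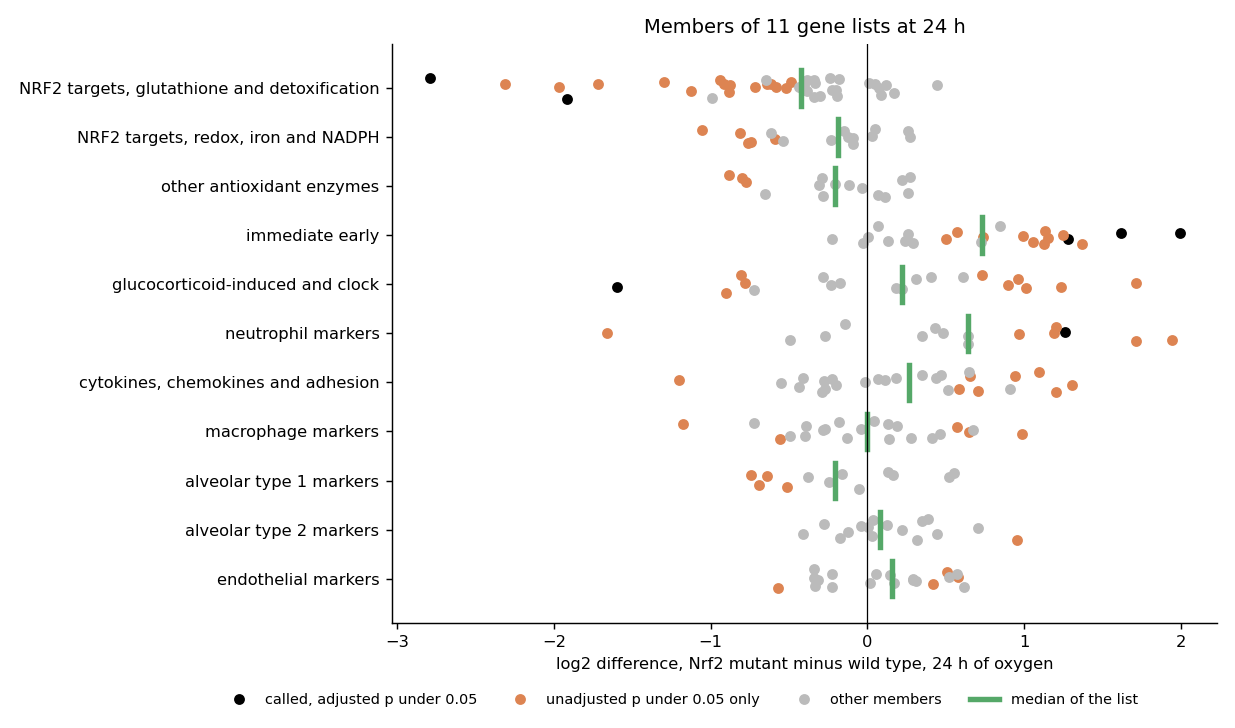
Log2 difference at 24 h for each tested member of 11 gene lists (points, 1 gene each by its brightest probe set) and the median of each list (green bar). Called members are black, those with an unadjusted p under 0.05 only are orange, and the medians run from -0.42 for glutathione and detoxification targets to 0.73 for immediate early genes.

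The largest falls were in genes outside the NRF2 lists. Xaf1, an inhibitor of the apoptosis inhibitor XIAP that interferon induces, had 397 and 91.6 in mutant lungs against 10002 and 9207 in wild type lungs. It fell 30.8-fold (log2 difference -4.94 ± 0.37, adjusted p 0.000202). At 0 h Xaf1 had 222 and 126 in mutant lungs and 87.0 and 92.3 in wild type lungs, so both genotypes were dim before oxygen. The mutant 0 h arrays had the highest 3′ to 5′ Gapdh ratios of the series, 1.67 to 2.26. Wild type lungs then had 3398 and 4491 at 48 h and 6894 and 7756 at 72 h, while mutant lungs had 125 and 110 at 48 h and 83.4 and 118 at 72 h. The wild type lungs were thus the bright ones at each oxygen time. Of 27 interferon genes tested Xaf1 was the only call, where 0.0895% of all genes were called lower. At an unadjusted p under 0.05, 1 was higher and 3 were lower, where 4.78% of all genes were higher and 5.91% lower. Bst2, an interferon-induced membrane protein, had 2844 and 2290 in mutant lungs and 3431 and 3652 in wild type lungs (adjusted p 0.449).

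Cwc22, a spliceosome component, had 46.4 and 73.2 in mutant lungs against 2550 and 1640 in wild type lungs (log2 difference -3.71 ± 0.37, adjusted p 0.00165). It was as low in the mutant at the other times, with log2 differences of -3.52 at 0 h, -3.91 at 48 h and -3.18 at 72 h. Cwc22 and Fam171b are neighbours of Nfe2l2 on mouse chromosome 2. Fam171b had 607 and 756 in mutant lungs and 1979 and 1925 in wild type lungs (log2 difference -1.37 ± 0.21, adjusted p 0.0253). Within 10 Mb of Nfe2l2 95 other genes were tested, and the median log2 difference was -0.01. These 2 were called lower and 0 were called higher, where 0.0895% of all genes were called lower and 0.104% higher. At an unadjusted p under 0.05, 7 were lower and 6 higher, where 5.91% of all genes were lower and 4.78% higher. A part for the chromosome segment around the mutated gene in these falls was not tested.

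Other called falls were of mixed kinds. Acot1, an acyl-CoA thioesterase of fatty acid metabolism, had 1238 and 1044 in mutant lungs against 2715 and 3004 in wild type lungs (log2 difference -1.24 ± 0.16, adjusted p 0.00604). Gdpd1, a phosphodiesterase of lipid metabolism, gave 1113 and 1013 in mutant lungs and 2693 and 2995 in wild type lungs on the called probe set (adjusted p 0.0086), but its brightest probe set had 2628 and 2827 in mutant and 3004 and 3444 in wild type lungs and was not called (adjusted p 0.703). Acot1 had 663 and 702 at 0 h and 834 and 780 at 48 h in wild type lungs, and the called Gdpd1 probe set had 549 and 794 at 0 h and 865 and 825 at 48 h. At 72 h wild type lungs had 1639 and 1853 for Acot1 and 2292 and 2433 for that Gdpd1 probe set, so the wild type was above its 0 and 48 h levels at both 24 and 72 h. The mutant was too. For Acot1 mutant lungs had 748 and 780 at 0 h, 659 and 630 at 48 h and 1413 and 1609 at 72 h. For the Gdpd1 probe set they had 788 and 725 at 0 h, 771 and 914 at 48 h and 1282 and 1303 at 72 h. Zbtb16, a zinc finger repressor that glucocorticoids induce, had 1499 and 1540 in mutant lungs and 4748 in the wild type lung (adjusted p 0.0422). Scgb1c1, a secretoglobin of airway epithelium, had 780 and 602 in mutant lungs and 2029 and 1986 in wild type lungs (adjusted p 0.0422). Wfdc21, a small secreted protein, had 114 and 114 in mutant lungs and 564 in the wild type lung (log2 difference -1.74 ± 0.18, adjusted p 0.00516). At 0 h its direction was the opposite, with 929 on the 1 mutant array and 170 and 163 in wild type lungs. A probe set of Mfap3 that is not the brightest of the gene, named here with its value already known because it lies outside the naming rule, had 583 and 621 in mutant lungs and 1634 and 1442 in wild type lungs (adjusted p 0.0314). The remaining falls were 2 probe sets that the annotation gives to several genes and 3 that it does not list.

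Immediate early genes, which cells transcribe within minutes of growth factor or stress signals, had higher values in the mutant. Of 24 tested, 3 were called higher, where 0.104% of all genes were. At an unadjusted p under 0.05, 13 were higher and 0 lower, where 4.78% of all genes were higher and 5.91% lower. The median log2 difference of 0.73 was the highest of the lists. On types B and C 3 of 4 members were higher at that threshold, where 3.88% of all genes on those types were. Fosl2, an AP-1 subunit, had 10408 and 9049 in mutant lungs against 4076 and 3771 in wild type lungs (log2 difference 1.28 ± 0.16, adjusted p 0.00555), and its second probe set rose by 1.33 ± 0.19 (adjusted p 0.014). Fos, another AP-1 subunit, had 4617 and 4264 in mutant lungs and 1390 in the wild type lung (adjusted p 0.00751). Nr4a1, an orphan nuclear receptor, had 5150.3 and 4303.5 in mutant lungs and 1123 in the wild type lung, and rose 3.99-fold (adjusted p 0.0314). Egr1, a zinc finger factor, had 1771 and 2283 in mutant lungs and 732 in the wild type lung and was not called (adjusted p 0.0714). Csrnp1, a nuclear protein outside the list, had the smallest adjusted p among the rises, with 10513 and 10764 in mutant lungs against 3787 and 4051 in wild type lungs (log2 difference 1.41 ± 0.14, adjusted p 0.00165). The mutant arrays were above every wild type array for these genes, but the genes were named for small p-values or large changes, so this adds no support. The list was not uniform, since Ier3 had a log2 difference of -0.22, Btg2 of -0.03 and Nr4a3 of 0.07, none of them called.

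Circadian clock and glucocorticoid-induced genes had values on both sides. Of 19 tested, 6 were higher and 4 lower at an unadjusted p under 0.05, where 4.78% of all genes were higher and 5.91% lower. Zbtb16, lower in the mutant, was the only call, where 0.0895% of all genes were called lower. Per1, a clock repressor that glucocorticoids also induce, had 2478 and 2914 in mutant lungs and 1098 in the wild type lung (adjusted p 0.0621). Nr1d2, the nuclear receptor REV-ERB beta, had 10262 and 9984 in mutant lungs against 5070 and 4842 in wild type lungs (log2 difference 1.01 ± 0.19, adjusted p 0.0714), and Per3 had 2559 and 2361 in mutant lungs against 1202 and 1323 in wild type lungs (log2 difference 0.90 ± 0.18, adjusted p 0.085). The labels give no hour of the day for the samples.

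Neutrophil markers, all on type A, had mostly higher values in the mutant. Of 15 tested, 1 was called higher, where 0.104% of all genes were. At an unadjusted p under 0.05, 6 were higher, where 4.78% of all genes were, and 1 was lower, where 5.91% were, and the median log2 difference was 0.64. Their summed intensity was 41622 and 41964 in mutant lungs and 29931 in the wild type lung. Bright members such as S100a8 weigh most in this sum. Chil3, also bright, went the other way, with 11820 and 12630 in mutant lungs and 14740 in the wild type lung. S100a8, a calcium-binding alarmin of neutrophils, had 11887 and 10277 in mutant lungs and 4565 in the wild type lung (log2 difference 1.26 ± 0.18, adjusted p 0.0256). Its partner S100a9 had 4720 and 5164 in mutant lungs and 2114 in the wild type lung (adjusted p 0.109). The matrix protease Mmp9 had 1955 and 1886 in mutant lungs and 440.4 in the wild type lung (adjusted p 0.085), and Mmp8 had 585 and 709 in mutant lungs and 143 in the wild type lung (adjusted p 0.173). Ngp, a neutrophil granule protein, was the member lower at an unadjusted p under 0.05. It had 90.5 and 141 in mutant lungs and 529 in the wild type lung (adjusted p 0.259). Of the 15 log2 differences 11 were positive and 4 negative, where 6531 of all 13411 genes were positive. Ly6g, also negative, had 203 and 129 in mutant lungs and 262 in the wild type lung (adjusted p 0.651). Type C carries a further neutrophil gene outside the list, Cd177, and there both genotypes have 2 arrays. Cd177 had 2771 and 2535 in mutant lungs against 776 and 545 in wild type lungs (log2 difference 1.86 ± 0.24, adjusted p 0.00932). Ccr1, a chemokine receptor of myeloid cells, had 892 and 962 in mutant lungs against 322 and 278 in wild type lungs on type B (log2 difference 1.31 ± 0.19, adjusted p 0.0147). One of the probe sets of Il1r2, the decoy interleukin-1 receptor, also rose (845 and 752 in mutant lungs, 213 in the wild type lung, adjusted p 0.0256), while its brightest was not called (698 and 917 in mutant lungs, 304 in the wild type lung, adjusted p 0.337).

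Cytokine and macrophage genes were less uniform. Of 26 tested cytokine, chemokine and adhesion genes 7 were higher and 1 lower at an unadjusted p under 0.05, where 4.78% of all genes were higher and 5.91% lower, with none called. Socs3, a feedback inhibitor of cytokine signalling, had 1051 and 1180 in mutant lungs and 480 in the wild type lung (adjusted p 0.136), Il1b had 1185 and 992 in mutant lungs and 659 in the wild type lung (adjusted p 0.326), and the neutrophil chemokine Cxcl5 had 146 and 117 in mutant lungs and 404 in the wild type lung (adjusted p 0.127). Of 22 macrophage markers 3 were higher and 2 lower, against the same shares of all genes, none was called, and the median was 0.00. Marco, a scavenger receptor, had 425 and 437 in mutant lungs and 1074 in the wild type lung (adjusted p 0.0714), and Cd14, the endotoxin coreceptor, had 5550 and 5583 in mutant lungs and 2769 in the wild type lung (adjusted p 0.085).

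Other rises came from single genes. Vnn3, a pantetheinase, had 336 and 452 in mutant lungs and 21.9 in the wild type lung (log2 difference 2.23 ± 0.31, adjusted p 0.0253). Its relative Vnn1 had 2905 and 2331 in mutant lungs and 1147 and 902 in wild type lungs on type C and was not called (adjusted p 0.131). Taok1, a kinase of stress signalling, had 8111 and 7458 in mutant lungs against 2015 and 1907 in wild type lungs (log2 difference 1.92 ± 0.27, adjusted p 0.0147). Rdh12, a retinol dehydrogenase, had 555 and 328 in mutant lungs against 51.2 and 35.5 in wild type lungs (adjusted p 0.0263). Alox15, a lipoxygenase, had 567 and 592 in mutant lungs and 123 in the wild type lung (adjusted p 0.0253). Col9a1 had 432 and 685 in mutant lungs and 85.1 in the wild type lung (adjusted p 0.0407), and a Smyd5 probe set had 283 and 361 in mutant lungs and 43.8 in the wild type lung (adjusted p 0.0312). For Col9a1 and Smyd5 the wild type array at 24 h was the lowest of the wild type arrays. Those of the other times had 381 to 708 for Col9a1 and 216 to 446 for Smyd5. Taok1 and Rdh12 were also lowest at 24 h among wild type arrays, with 2571 to 5916 and 64.3 to 305 at the other times. The wild type array of the Sirpa probe set named below had 274 at 24 h, against 412 to 728 at the other times. An immunoglobulin mu heavy chain (Ighm) probe set had 7175 and 7118 in mutant lungs and 1866 in the wild type lung (log2 difference 1.89 ± 0.21, adjusted p 0.00604), while another Ighm probe set, brighter on average over all arrays, missed the threshold (adjusted p 0.183). Immunoglobulin genes have similar sequences, and which of them the probe sets measure was not tested. Arhgap25 had 417 and 404 in mutant lungs and 87.3 and 109 in wild type lungs on type B (adjusted p 0.0256), but its brightest probe set, on type C, was not called (log2 difference 0.12 ± 0.30). Probe sets of Sirpa, Cdc42bpb and Mmrn2, outside the naming rule and named with their values known, rose 2.57-fold, 2.25-fold and 2.04-fold, and 1 probe set without a gene in the annotation completed the rises.

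No member of the marker lists for alveolar, club and ciliated epithelium, endothelium or smooth muscle was called. The extracellular matrix and fibroblast list held 1 call among 32 tested, Col9a1, where 0.104% of all genes were called higher. Of 12 alveolar type 1 markers 4 were lower at an unadjusted p under 0.05 and 0 higher, where 5.91% of all genes were lower and 4.78% higher. Among them Cav1, the caveolin of thin alveolar cells and endothelium, had 9497 and 7241 in mutant lungs and 13426 in the wild type lung (adjusted p 0.353), and Pdpn, which marks alveolar type 1 cells, had 1220 and 1205 in mutant lungs and 2077 in the wild type lung (adjusted p 0.382). Of the 12 log2 differences 8 were negative and 4 positive. Among the positive, Ager had 19720 and 24180 in mutant lungs and 19460 in the wild type lung (adjusted p 0.867). Aqp5, also positive, had 6182 and 5923 in mutant lungs and 5280 and 5774 in wild type lungs on type B (adjusted p 0.904). On types B and C 1 of 8 type 1 markers, Rtkn2, was lower at an unadjusted p under 0.05, where 4.93% of all genes on those types were. Of 16 type 2 markers 1 was higher and 0 lower, and of 20 endothelial markers 3 were higher and 1 lower, set against the same shares. The haemoglobin gene Hba-a1 differed between the mutant replicates, with 4656 and 25167 in mutant lungs and 6520 in the wild type lung. Cdkn1a, the p53 target p21, had 2133 and 2302 in mutant lungs and 2600 in the wild type lung, the metallothionein Mt1 had 3767 and 4519 in mutant lungs and 4048 in the wild type lung, and Mt2 had 12622 and 14008 in mutant lungs and 10387 in the wild type lung. None of these 3 was called, with adjusted p-values of 0.818, 0.988 and 0.642.

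**Figure D3:**
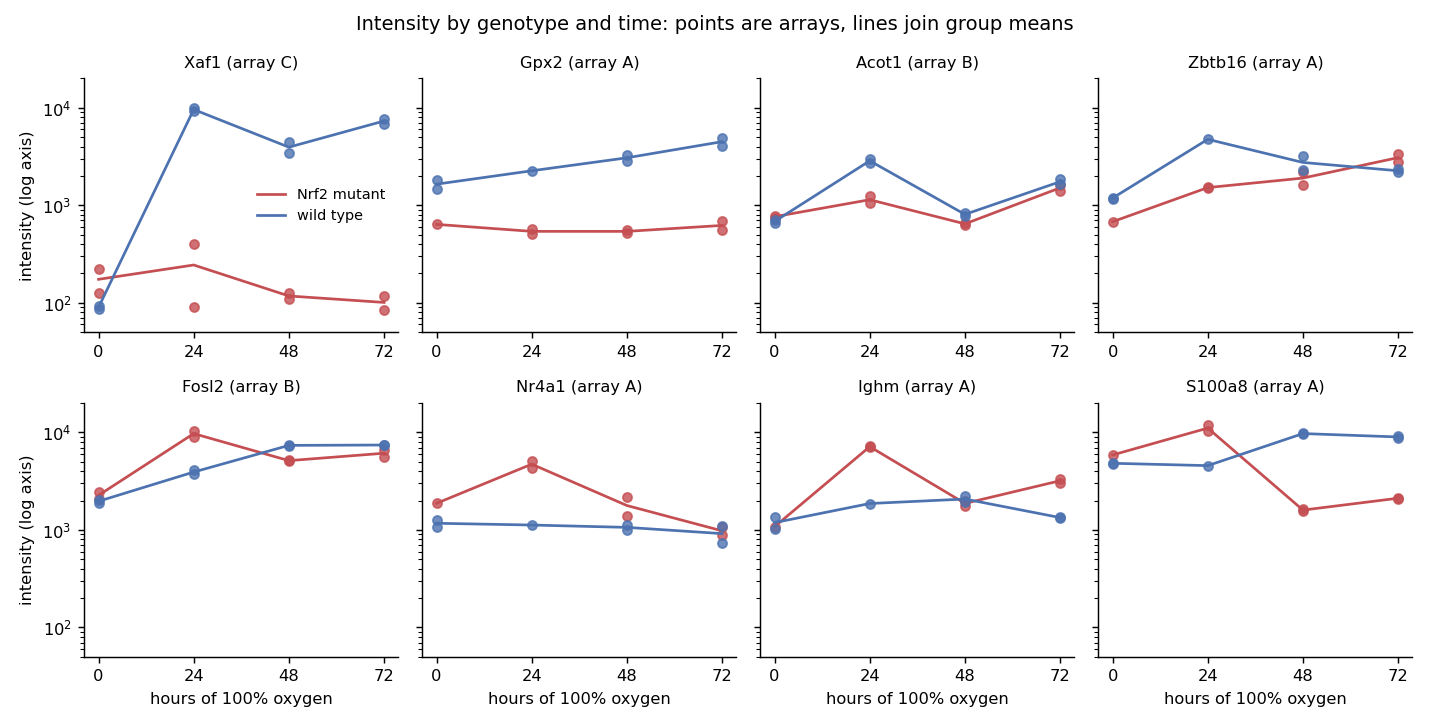
Intensity (log axis) on each array at 0, 24, 48 and 72 h of oxygen in Nrf2 mutant (red) and wild type (blue) lungs for 8 called genes, each by the probe set with the smallest adjusted p at 24 h. Xaf1 is bright in wild type lungs alone, from 24 h on, Gpx2 is lower in the mutant throughout, and S100a8 is higher in the mutant at 24 h and lower at 48 and 72 h.

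Whether a genotype difference at 24 h was also present later was asked of the same probe sets. Of the 42 probe sets called at 24 h, 13 were called in either direction at 48 h, when 0.376% of all probe sets were called, and 22 at 72 h, when 0.82% were. The direction was the one seen at 24 h in 11 of the 13 and in 18 of the 22. Of the 21 falls, 10 were again called lower at 48 h and 14 at 72 h, and 2 probe sets that the annotation does not list were called higher at 72 h. Of the 21 rises, 1 was again called higher at 48 h and 4 at 72 h. The opposite calls among the rises were those of S100a8 and an Il1r2 probe set at 48 h and of S100a8 and Cd177 at 72 h, all lower in the mutant. These calls compare different arrays of the same genotypes, in 1 fit with a shared spread. Gpx2 was lower in the mutant by -2.34 at 48 h and -2.71 at 72 h on the log2 scale, and Ces1f by -2.13 and -2.17. At 0 h the log2 differences were -1.26 for Gpx2, with 1 mutant array, and -1.37 for Ces1f. Several NRF2 targets that were not called at 24 h were called later. Gclc had a log2 difference of -0.64 at 24 h, -0.67 at 48 h and -2.17 at 72 h, Txnrd1 had -0.59, -1.10 and -1.72, and Osgin1 had -1.06, -1.68 and -2.39. For none of these 3 was the difference between 24 and 72 h itself called, with adjusted p-values of 0.12, 0.25 and 0.099. It was called for 1 member of the glutathione and detoxification list, where 0.0969% of all genes were called more positive at 24 h. That member was Slc7a11, on type B, with -0.24 at 24 h and -2.30 at 72 h (difference 2.06 ± 0.30, adjusted p 0.0211).

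The genotype difference at 24 h minus that at 48 h was called at 56 probe sets, 0.209% of those tested, of which 47 were more positive at 24 h. Both sides contain the 24 h arrays described above, so these calls are not a second measurement of the 24 h difference. There were 6 calls without wild type 24 h replicate 1b, which leaves types B and C, and 18 to 53 with any other single 24 or 48 h replicate left out. By brightest probe set 28 genes were called more positive at 24 h, which is 0.209% of genes, and 6 of the 15 neutrophil markers were among them. For S100a8 the mutant had 1635 and 1561 at 48 h against 9823 and 9647 in wild type lungs, so the direction was opposite to that at 24 h (difference 3.81 ± 0.23, adjusted p 0.000228). Mmp8 gave the largest difference (4.56 ± 0.54, adjusted p 0.00887), with 114 and 58.9 in mutant and 826 and 1430 in wild type lungs at 48 h. Mmp9 followed with 4.04 ± 0.47 (adjusted p 0.00887) and S100a9 with 3.53 ± 0.32 (adjusted p 0.00241). A Csf3r probe set, for the receptor of the neutrophil growth factor G-CSF, gave 3.76 ± 0.30 (adjusted p 0.00134). Its brightest probe set gave 0.77 ± 0.34 and was not called (adjusted p 0.455). Cd177 on type C gave 2.82 ± 0.35 (adjusted p 0.00803). Neutrophil markers had a median log2 difference of 0.64 at 24 h, -1.14 at 48 h and -0.71 at 72 h. Not all members changed direction. Lcn2 had 0.43 at 24 h and 1.38 at 48 h, and Ltf had 0.96 and 0.44. Ngp, Ly6g, Chil3 and Camp were negative at both times. The AP-1 gene Fosl2 (1.79 ± 0.22, adjusted p 0.00803), Csrnp1 (1.46 ± 0.20, adjusted p 0.0105) and the clock genes Per3 (1.65 ± 0.26, adjusted p 0.0208) and Nr1d2 (1.56 ± 0.27, adjusted p 0.043) also had a more positive difference at 24 h.

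Only 9 probe sets were more negative at 24 h than at 48 h. Spon2, a matrix protein that also acts in innate immunity, had 724 and 725 in mutant and 1374 and 791 in wild type lungs at 24 h, and 1419 and 1814 in mutant and 136 and 161 in wild type lungs at 48 h (difference -3.23 ± 0.43, adjusted p 0.0105). A probe set of Eln, the elastin gene, had 124 and 191 in mutant lungs and 348 in the wild type lung at 24 h, and 816 and 961 in mutant and 136 and 111 in wild type lungs at 48 h (difference -3.13 ± 0.41, adjusted p 0.0161). Its brightest probe set was not called for this difference. Across the times the wild type arrays of Spon2 were brightest at 24 h, and the mutant arrays of Eln at 48 h. Probe sets of Kif5b, Stk38l, Adamts17 and Dmac2l were the other named ones.

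Against 72 h the difference was called at 30 probe sets (0.112% of those tested), 18 more positive and 12 more negative at 24 h. There were 3 calls without wild type 24 h replicate 1b and 10 to 21 with any other single 24 or 72 h replicate left out. By brightest probe set 13 genes were more positive, which is 0.0969% of genes. They included S100a8 (3.31 ± 0.23, adjusted p 0.000314), Cd177 (3.30 ± 0.35, adjusted p 0.00302), S100a9 (2.94 ± 0.32, adjusted p 0.00765) and Fos (1.76 ± 0.24, adjusted p 0.0251). The arrays of the genotypes overlapped for Tmem252 at 24 h, with 421 and 375 in mutant and 336 and 400 in wild type lungs, and did not at 72 h, with 352 and 299 in mutant and 2433 and 2118 in wild type lungs (adjusted p 0.00386). Ankrd37, a gene that low oxygen is known to induce, and a pair of genes for peptides that act on vessels ran the other way. Ankrd37 had 155 and 218 in mutant and 293 and 282 in wild type lungs at 24 h, and 2374 and 2163 in mutant and 441 and 550 in wild type lungs at 72 h (difference -2.36 ± 0.27, adjusted p 0.00386). The vasodilator peptide adrenomedullin (Adm) gave -2.25 ± 0.30 (adjusted p 0.0251) on a type A probe set, while its brightest probe set was not called. Edn1, which encodes the vasoconstrictor endothelin, gave -2.11 ± 0.24 (adjusted p 0.0103). None of the 3 was called at 24 h.

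**Figure D4:**
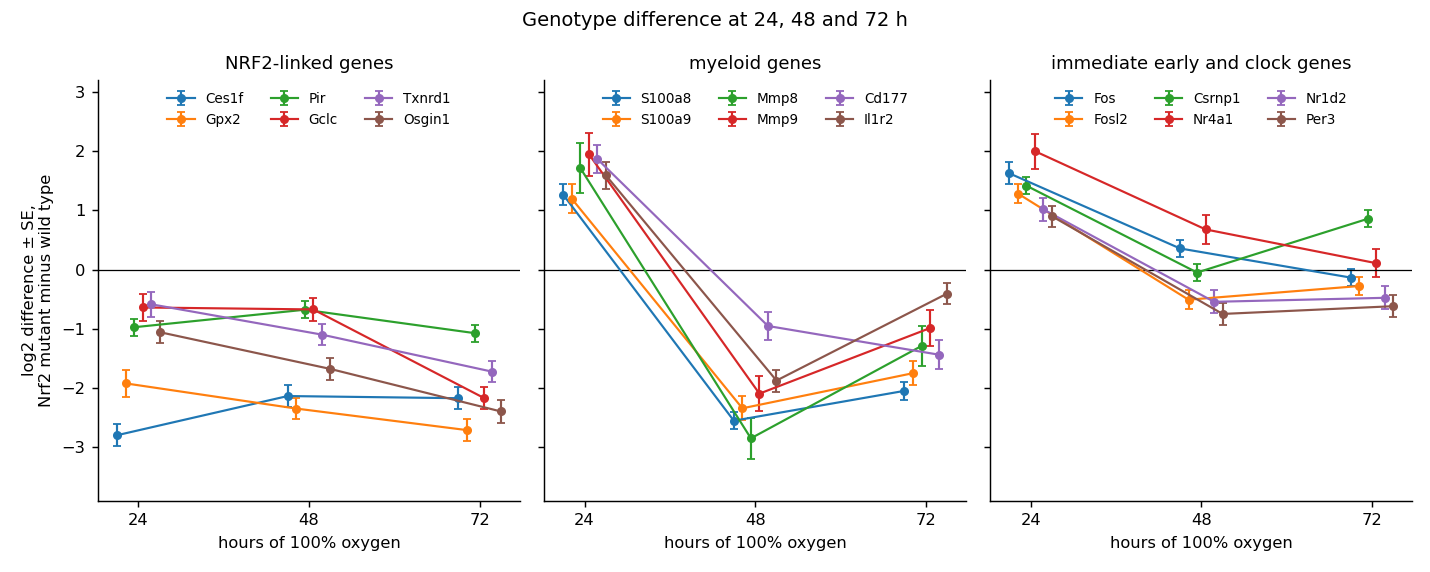
Log2 difference ± SE (Nrf2 mutant minus wild type) at 24, 48 and 72 h for 6 NRF2-linked genes, 6 myeloid genes and 6 immediate early or clock genes. The NRF2-linked genes lie below 0 at every time, and the myeloid genes lie above 0 at 24 h and below 0 at 48 and 72 h.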

How the data were processed

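The authors deposited 1 linear intensity per probe set and array. Each array type has a nearly constant trimmed mean, so the values had been scaled before deposit, and that scaling was kept. The scaling software is not given in the sources used here. Detection calls were not used here. Control probe sets were left out, the 25th percentile of the array type was added, log2 was taken, and probe sets were kept where 2 or more arrays passed the type's 40th percentile, 8515 on A, 8952 on B and 9366 on C. Of these, 21868 had 1 gene symbol, 546 several and 4419 none, with symbols updated through RefSeq.

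limma 3.58.1 in R 4.3.3 fitted each array type with all 8 groups, so that groups share an estimate of the spread and a group of 1 array is assumed to vary like the rest. Tests are two-sided and adjusted by Benjamini-Hochberg over all 3 types. The fitting was tested on simulated data. The number of arrays limits the precision.

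The comparison, the gene lists and the genes to name were chosen with earlier results of these data known. The text names Nfe2l2, the 12 largest called changes of each sign without overlap, the 6 smallest p-values of each sign on B and on C (those not called have no value here unless a list holds them), up to 4 members of a list, 21 further genes and the 6 largest differences of each sign between times. A gene is given by its brightest probe set and any other that earned the name. Genes shown beyond that as list members were chosen after their values were seen. Alternatives changed the added value, normalization, filter, arrays, spread model and adjustment, and left out each replicate in turn.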

Additional observations from a re-analysis of the deposited data

Results flagged for a closer look

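The genotype difference at 24 h departed from the one at a later time, by a test of the departure itself in the limma fit, for the named genes that follow. Values are log2 differences of mutant and wild type at 24 h minus the same at the later time. Against 48 h they were more positive at 24 h for Mmp8 (4.56), Mmp9 (4.04), S100a8 (3.81), Csf3r (3.76), S100a9 (3.53), Il1r2 (3.46 and 3.14), Clec4d (3.01), Cd177 (2.82), Ccl9 (2.68), Il1b (2.19), Ighm (2.04), Smyd5 (2.03), Ccr1 (2.01), Cd14 (1.80), Fosl2 (1.79 and 1.79), Per3 (1.65), Nr1d2 (1.56) and Csrnp1 (1.46). They were more negative for Spon2 (-3.23), Eln (-3.13), Kif5b (-2.98), Stk38l (-1.81), Adamts17 (-1.78) and Dmac2l (-1.23). Where a gene has several values, each is of its own probe set. For Csf3r, Dmac2l, Eln, Ighm, Kif5b, Smyd5 and Stk38l the brightest probe set of the gene did not pass.

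Against 72 h they were more positive at 24 h for S100a8 (3.31), Cd177 (3.30), S100a9 (2.94), Clec4d (2.75), Csf3r (2.51), Tmem252 (2.50), Il1r2 (1.99), Il1b (1.83), Fos (1.76) and Fosl2 (1.56), and more negative for Ang4 (-2.75), Ankrd37 (-2.36), Adm (-2.25), Ftsj3 (-2.19), Edn1 (-2.11) and Col18a1 (-1.94). For Adm, Ang4, Col18a1, Csf3r, Ftsj3 and Il1r2 the brightest probe set did not pass. All of these values passed an adjusted p under 0.05. Groups of 1 or 2 arrays are too small for a test of single outlying arrays.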

How the results depend on the processing

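The counts of called probe sets, 42 at 24 h, 56 for the difference to 48 h and 30 for that to 72 h, rested on the spread shared by all groups. The arrays of the compared groups alone gave 0 probe sets at 24 h, 12 for the difference to 48 h and 11 for that to 72 h. A stricter filter on dim probe sets gave 91 probe sets at 24 h, 91 for the difference to 48 h and 66 for that to 72 h, and a trended and robust spread gave 91 probe sets at 24 h, 93 for the difference to 48 h and 69 for that to 72 h. Adjustment within each array type gave 66 at 24 h, 82 for the difference to 48 h and 56 for that to 72 h, and array types B and C alone gave 22 probe sets at 24 h, 17 for the difference to 48 h and 10 for that to 72 h. With 1 replicate left out the counts ran from 5 to 37 at 24 h, 6 to 53 and 3 to 21, the lowest each without wild type 24 h replicate 1b, which drops type A. The cause of these moves was not tested beyond the arrays or probe sets that a setting leaves. A floor, quantile normalization, no filter and the fit without the mutant 0 h arrays kept the 24 h count between 39 and 46, and the 42 called probe sets shared 32 to 42 with them. With the replicate number as a block the counts were 43 probe sets at 24 h, 77 for the difference to 48 h and 38 for that to 72 h. Equal numbers did not mark a shared animal or day by the labels, and deviations of same-numbered arrays correlated at 0.245 on type B and at -0.00987 on type C. No called gene changed sign under any setting run. Uncalled log2 differences changed sign for Hmox1 with the block (-0.0729) and for Col18a1 with quantile normalization (-0.0179). With 1 replicate left out they ran from -0.0524 to 0.109 for Hmox1, -0.163 to 0.374 for Col18a1, -0.102 to 0.156 for Mt1, -0.479 to 1.94 for Hba-a1, -0.116 to 0.355 for the brightest probe set of Arhgap25 and -0.00722 to 0.18 for Tmem252. List medians kept their sign under 9 to 11 settings for both NRF2 target lists, immediate early, clock and neutrophil genes.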
